A study of Homo sapiens with 6 samples.

Results

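The genes described here build and supply the sugar chains of the Golgi. They comprise 66 protein-coding glycosyltransferase genes of the GALNT, MGAT, B3GALT, B4GALT, B3GNT, ST3GAL, ST6GAL (with ST6GALNAC) and FUT families and 30 protein-coding genes of the SLC35 family of carriers. They were taken by symbol alone and made up 96 of the 30403 genes in the deposited table, of which 16672 were protein-coding. HK-2 is an established human cell line derived from kidney proximal tubule. The cells were transfected with a plasmid for an shRNA against PARP1 (shPARP1) or with a control shRNA plasmid (shCtrl), both with Lipofectamine 2000 as the carrier, and were harvested 48 h later. PARP1 is a nuclear enzyme that binds damaged DNA and chromatin and adds ADP-ribose to proteins. Each group had 3 RNA-seq libraries of polyadenylated RNA. The labels do not say that the libraries came from separate cultures, so p-values measure the spread between libraries, which may be technical. In bulk RNA of a cell line, fewer cells with a transcript and less of it per cell cannot be told apart.

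In the Golgi, each glycosyltransferase moves one kind of sugar from an activated donor to a growing chain on a protein or lipid. The donors are nucleotide sugars made mostly in the cytosol, and SLC35 carriers bring them across the membrane in exchange for the spent nucleotide. GALNT enzymes start mucin-type O-glycans, MGAT enzymes set the branches of N-glycans, galactosyltransferases and B3GNT enzymes extend them, and sialyltransferases and fucosyltransferases cap them. In the kidney tubule, such chains coat the cell surface and the receptors and transporters in it.

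PARP1 itself fell from 261 ± 2.37 CPM (counts scaled to a common library size, with TMM factors; mean ± SD, n = 3 libraries) to 27.3 ± 1.37 CPM, with a log2 fold change of -3.26 (SE 0.04, adjusted p = 1.73e-51 by edgeR's quasi-likelihood test). The control libraries held 24429683 to 26269194 counts and the knockdown libraries 29387853 to 32809303, so every knockdown library was deeper than every control library. By library total alone, without TMM factors, a count of 3 equals 0.0914 to 0.123 CPM. Of 18 proximal tubule marker genes in the table, 10 were tested and 8 of those fell, with a median log2 fold change of -0.50. That is 80%, where 32.2% of tested protein-coding genes fell. The summed level of the 18 genes was 1382 to 1403 CPM in shCtrl and 948 to 972 CPM in shPARP1. The defining markers ANPEP, CUBN, HNF4A, LRP2, MME, SLC22A6 and SLC34A1 stayed under 1 CPM in every library of both groups. Of 14 marker genes of other cell types in the table, 6 were tested, and 5 of them fell (83.3%) and 1 rose (16.7%). Of tested protein-coding genes, 29.6% rose. The summed level of the 14 genes was 103 to 110 CPM in shCtrl and 83.2 to 87.7 CPM in shPARP1. The endothelial, lymphocyte, podocyte and distal nephron markers CD3E, CDH5, NPHS1, PECAM1, SLC12A1, SLC12A3 and VWF were under 1 CPM throughout. Of the fibroblast and stromal markers, DCN was under 1 CPM, while LUM went from 14.8 to 7.72 CPM, PDGFRB from 5.84 to 2.08 CPM and COL1A1 from 68.6 to 63.6 CPM. Myeloid markers were detected as well and were called in both directions. The part of these marker shifts in the results below was not tested.

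Genes of this machinery were mostly lower after PARP1 knockdown. Of the 96 genes, 77 had enough counts to be tested, and 52 of them fell, 5 rose and the other 20 missed the threshold, an adjusted p of 0.05. The fallers were 67.5% of those tested, where 32.2% of tested protein-coding genes and 28.5% of all tested genes fell. The risers were 6.49%, where 29.6% of protein-coding genes and 27.3% of all genes rose. The median log2 fold change of the tested members was -0.38, against -0.02 over tested protein-coding genes. Falls of at least 2-fold were called for 12 members, which is 15.6% of those tested, where 4.27% of protein-coding genes fell that far. No member rose that far, where 1.68% of protein-coding genes did, and the largest called rise of a member was 0.54 on the log2 scale. In 58 of the 77, or 75.3%, the 3 values of one group lay wholly above or below those of the other, where that held for 65.3% of protein-coding genes. In the GALNT, MGAT, B3GNT, sialyltransferase and SLC35E to SLC35G classes, 0 genes rose by edgeR, by DESeq2 or at an unadjusted p of 0.05 in edgeR, but with a correction for exon length and GC content MGAT1 and SLC35E4 were called higher, and the risers over all classes went from 5 to 9. These counts describe the list and are no test of it.

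**Figure D1:**
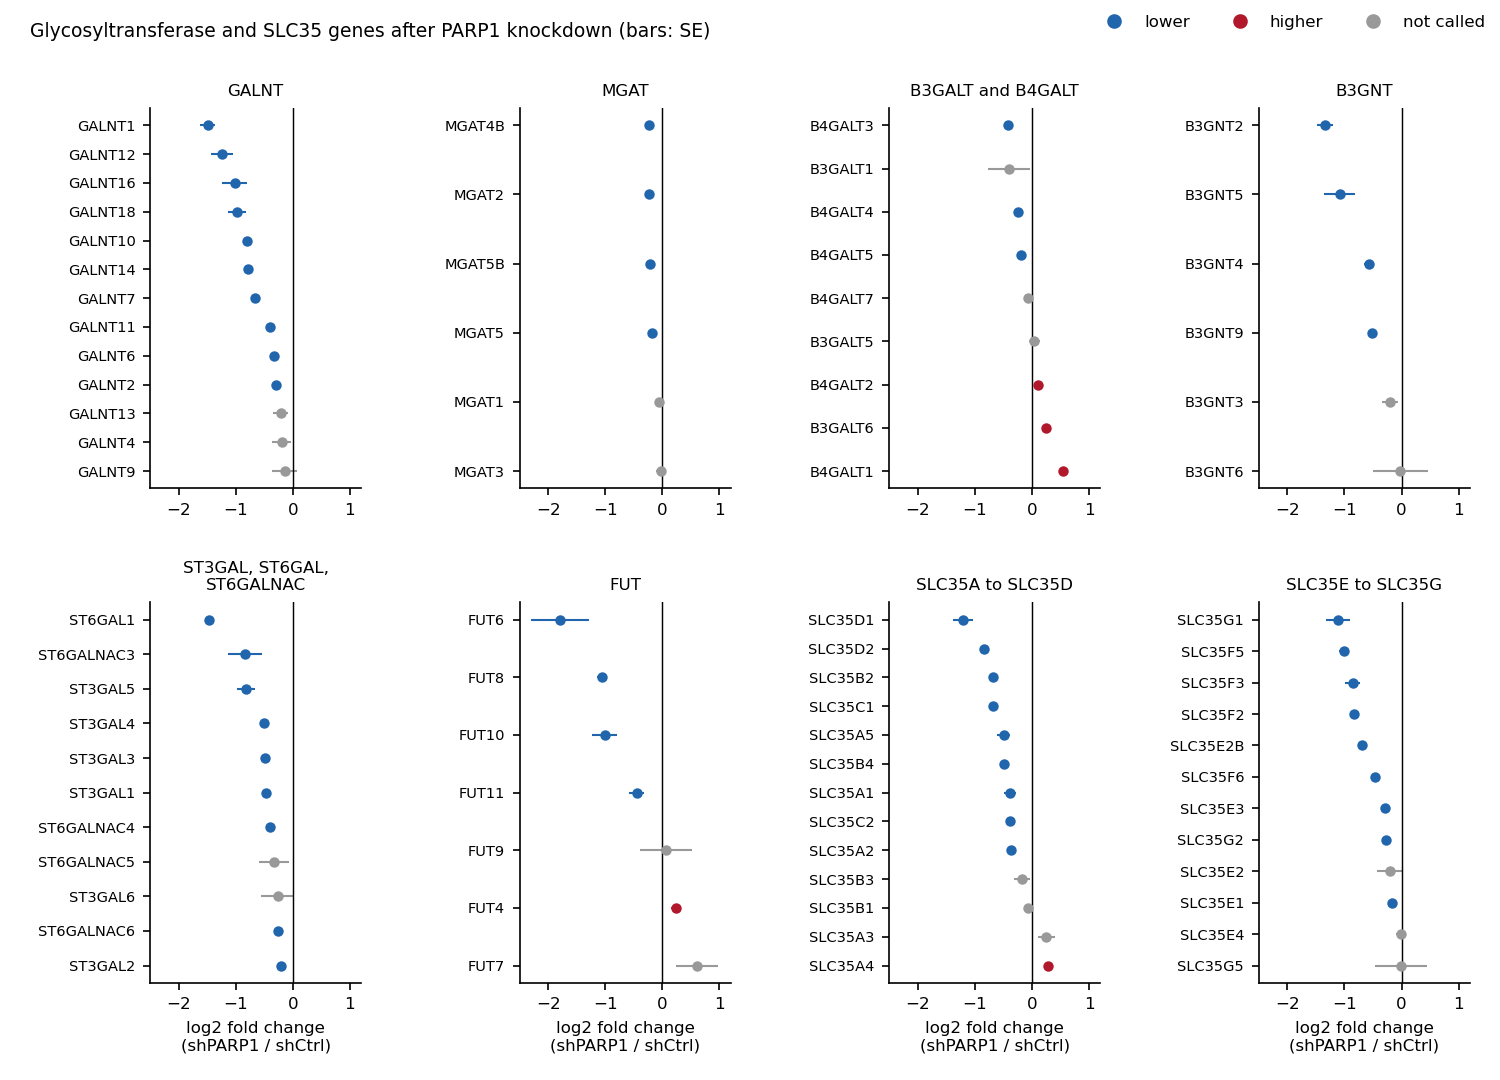
Log2 fold change of each tested gene (horizontal axis, shPARP1 over shCtrl) by family, with bars for the SE of the fit, blue for called lower, red for called higher and grey for not called. Points lie left of 0 for 68 of the 77 genes, some grey ones so close to it (such as B3GNT6, SLC35E4 and SLC35G5) that another scaling moves them across, and the 5 red points are B4GALT1, B3GALT6, B4GALT2, FUT4 and SLC35A4.

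The 12 genes that fell by 2-fold or more were spread over most families: GALNT1, GALNT12 and GALNT16, B3GNT2 and B3GNT5, ST6GAL1, FUT6, FUT8 and FUT10, and the carriers SLC35D1, SLC35F5 and SLC35G1. Calls were found at all levels of expression. Among 21 tested genes with a mean under 5 CPM, 10 fell and 0 rose. Among 32 with 5 to 50 CPM, 25 fell and 1 rose, and among 24 with at least 50 CPM, 17 fell and 4 rose. Call rates depend on level, and a fit restricted to genes averaging 5 CPM or more called 36.9% of them lower and 36.3% higher. In that fit, 42 of 55 members were lower and 5 higher. Shares of all genes within each of these level bands were not computed. The 19 genes that were not tested reached at most 0.65 CPM in any library. They were B3GALT4, B3GNT7, B3GNT8, B4GALT6, FUT1, FUT2, FUT3, GALNT3, GALNT8, GALNT15, MGAT4A, MGAT4C, ST6GAL2, ST6GALNAC2, SLC35D3, SLC35F1, SLC35F4, SLC35G3 and SLC35G6. Every tested member reached the count level for testing in some library of each group. FUT6 had counts of 15, 11 and 25 in shCtrl but 12, 3 and 3 in shPARP1, so it passed mainly through the control group.

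Promoter sequences were searched for the letters ACGTGGC, on either strand (GCCACGT on the other), because they form the core of an element known from the response of Golgi genes to Golgi stress. RefSeq promoter windows of 300 bases on GRCh38.p14, from 250 before to 50 after a start, were matched by symbol for 72 of the 96 genes. The letters were present for 7 of these 72 genes (9.72%), against 577 of 10007 tested protein-coding genes with a window (5.77%). By window, they were in 7 of 118 (5.93%), against 612 of 14635 windows of tested protein-coding genes (4.18%) and 3.22% of all 35116 windows. Among the 7 genes were 2 of the 5 risers with a window (B3GALT6 and B4GALT2, 40%). Another 4 were among the 41 fallers with a window (SLC35B2, SLC35C1, SLC35E3 and ST3GAL5, 9.76%), and 1 was not called (MGAT1). A link between letters and direction was not tested, and the genes with the letters did not share a direction. They are shown 5′ to 3′ on the gene's strand with 25 bases on each side, and the capitals mark the match. In order, the stretches are chr1:1232083-1232139 (plus), chr1:43979847-43979903 (plus), chr5:180802813-180802869 (minus), chr6:44257324-44257380 (minus), chr11:45805068-45805124 (plus), chr12:68746105-68746161 (plus) and chr2:85888790-85888846 (minus).
B3GALT6: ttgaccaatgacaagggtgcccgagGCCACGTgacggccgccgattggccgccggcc
B4GALT2: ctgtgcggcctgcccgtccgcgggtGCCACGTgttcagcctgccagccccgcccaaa
MGAT1: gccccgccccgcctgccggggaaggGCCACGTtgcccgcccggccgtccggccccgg
SLC35B2: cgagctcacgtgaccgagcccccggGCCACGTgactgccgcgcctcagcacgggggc
SLC35C1: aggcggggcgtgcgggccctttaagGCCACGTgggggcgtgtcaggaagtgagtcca
SLC35E3: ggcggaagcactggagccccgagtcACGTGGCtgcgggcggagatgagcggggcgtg
ST3GAL5: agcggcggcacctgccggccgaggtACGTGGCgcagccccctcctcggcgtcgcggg

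In 5 of the 7 stretches (B3GALT6, B4GALT2, SLC35B2, SLC35C1 and SLC35E3) the match overlapped the letters CACGTG, the E-box read by many helix-loop-helix factors. CACGTG was found for 10 of the 72 genes (13.9%) and for 12.8% of tested protein-coding genes. It was found for 3 of the 5 risers with a window (60%) and 6 of the 41 fallers with one (14.6%). Counted by window, it was in 8.47% of the members' windows, in 9.42% of those of tested protein-coding genes and in 7.26% of all windows. Each match is a description of letters in the window and shows no binding.

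The GALNT family, which attaches the first GalNAc of mucin-type O-glycans to serine or threonine, fell broadly. Of 13 tested genes 10 fell (76.9%, where 32.2% of tested protein-coding genes fell). The other 3 did not pass the test (GALNT4, GALNT9 and GALNT13), and the median log2 fold change was -0.66. GALNT2, a widely expressed starter enzyme at chr1:230057990-230282124 (GRCh38), was at 134 FPKM (counts per length and library size) in shCtrl and 112 FPKM in shPARP1. Its counts gave 696, 684 and 683 CPM in shCtrl and 568, 557 and 549 CPM in shPARP1, which did not overlap, with a log2 fold change of -0.30 (SE 0.03, adjusted p = 1.21e-12 by edgeR). After correcting for exon length and GC content its log2 fold change was -0.15.

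GALNT14, another enzyme of this first step at chr2:30910467-31155202, was at 144 FPKM in shCtrl and 86.3 FPKM in shPARP1. It measured 550.01, 558 and 521 CPM in shCtrl against 317, 308 and 321 CPM in shPARP1. All knockdown values lay well under the controls, with a log2 fold change of -0.78 (SE 0.03, adjusted p = 4.1e-28 by edgeR). GALNT10, which prefers peptides that already carry a GalNAc, lies at chr5:154190730-154420984. It measured 372, 342 and 353 CPM in shCtrl and 205, 204 and 202 CPM in shPARP1, giving a log2 fold change of -0.80 (SE 0.04, adjusted p = 1.64e-27 by edgeR). The 3 knockdown libraries differed by less than the controls did among themselves. GALNT1, a starter enzyme of broad specificity at chr18:35581117-35711834, was expressed at a lower level and fell furthest. It went from 9.98, 9.67 and 10.8 CPM to 3.98, 3.18 and 3.66 CPM, or 35.6% of control, with a log2 fold change of -1.49 (SE 0.13, adjusted p = 1.93e-15 by edgeR).

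Smaller members moved the same way. The log2 fold changes were -1.24 for GALNT12, -1.01 for GALNT16, -0.98 for GALNT18, -0.66 for GALNT7, -0.39 for GALNT11 and -0.32 for GALNT6, the last of which was -0.17 with the length and GC correction. GALNT4, at -0.19, shares 93.2% of its exon bases with the readthrough gene POC1B-GALNT4, so its counts are uncertain. Summed over the family, the level was 344 ± 7.13 FPKM in shCtrl and 241 ± 2.36 FPKM in shPARP1, or 70.2% of control. Its make-up shifted too: GALNT14 was 41.98% of the summed FPKM in shCtrl and 35.8% in shPARP1, while GALNT2 was 39.0% and 46.5%. Per length, GALNT14 was thus above GALNT2 in all 3 shCtrl libraries and below it in all 3 shPARP1 libraries.

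**Figure D2:**
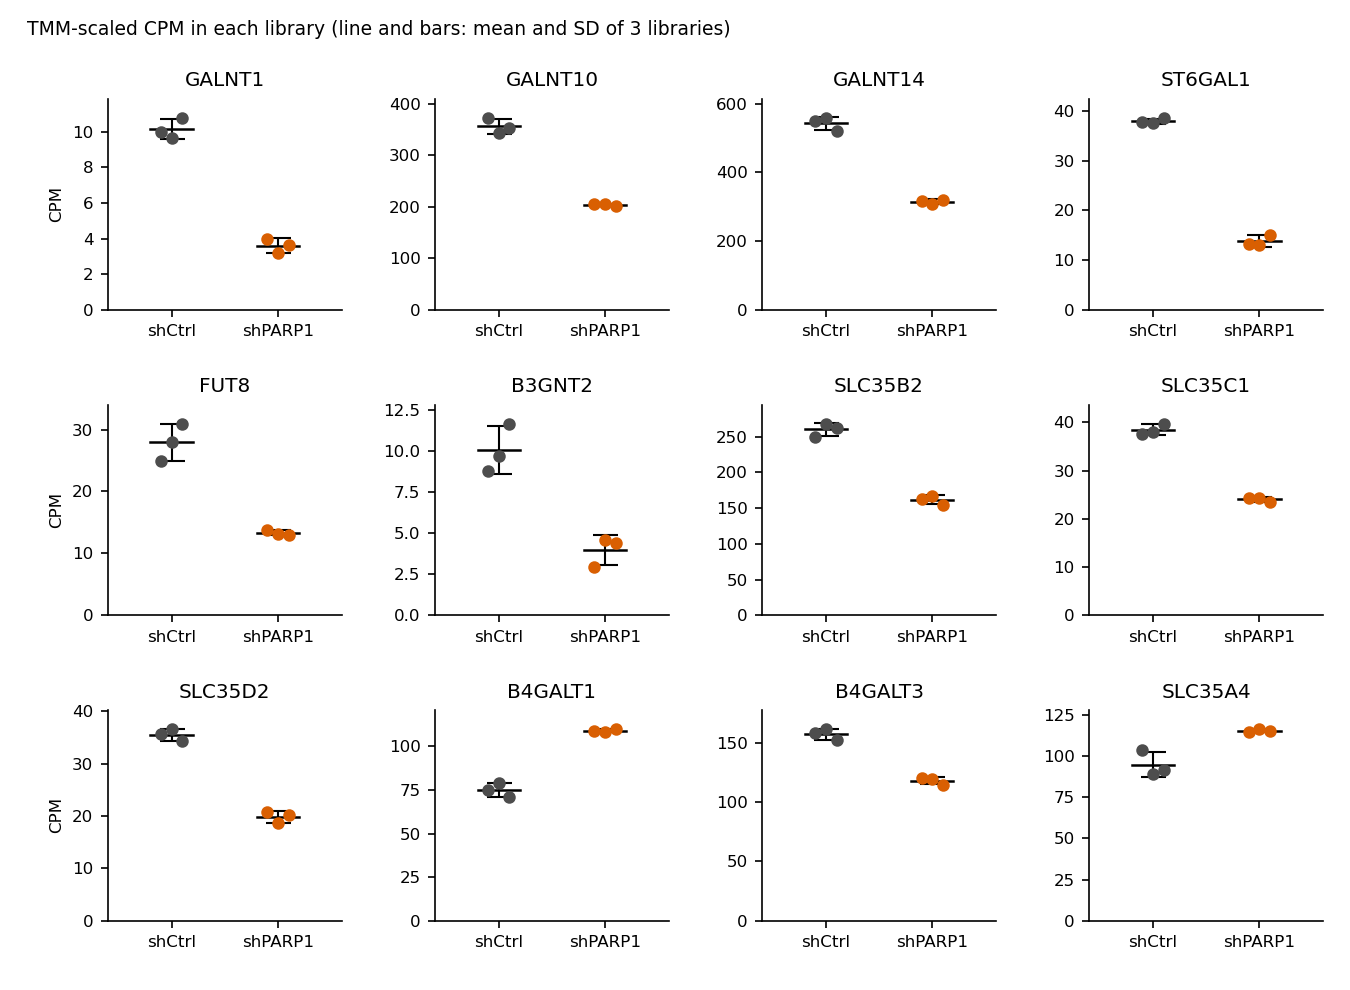
TMM-scaled CPM (vertical axis, from 0) in each of the 3 shCtrl (grey) and 3 shPARP1 (orange) libraries for 12 genes, with the mean and SD. The 12 genes were picked from the called members, of which only FUT11 had overlapping groups. Groups were apart in 65.3% of all tested protein-coding genes. The groups do not overlap in any panel, and B4GALT1 and SLC35A4 are the panels in which the knockdown libraries are the higher ones.

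The MGAT family, which adds the GlcNAc residues that branch N-glycans, fell by small amounts. Of 6 tested genes 4 fell (66.7%, where 32.2% of tested protein-coding genes fell). The other 2 did not pass the test (MGAT1 and MGAT3), and the median log2 fold change was -0.20. MGAT1, which commits a glycan to the hybrid and complex types, measured 197, 195 and 195 CPM in shCtrl and 195, 187 and 182 CPM in shPARP1. The lowest control and the highest knockdown library were almost level, its log2 fold change was -0.06 (adjusted p = 0.188 by edgeR), and with the length and GC correction it was 0.14 (adjusted p = 7.16e-05), so no direction is given for it. MGAT2, which starts the next antenna, measured 40.1, 42.3 and 40.9 CPM against 33.7, 34.7 and 36.1 CPM. That was a fall of modest size without overlap, at -0.24 (SE 0.06, adjusted p = 4.98e-04 by edgeR). A gene on the opposite strand, AL139099.1, covers 91.9% of its exon bases, and the strand setting of the counting is not given in the sources used here.

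MGAT4B, which adds a further antenna, measured 325, 332 and 314 CPM in shCtrl and 291, 268 and 264 CPM in shPARP1, giving a log2 fold change of -0.24 (SE 0.04, adjusted p = 5.99e-08 by edgeR), or -0.10 with the length and GC correction. MGAT5, whose branch is the usual carrier of long lactosamine chains, measured 46.1, 48.1 and 49.2 CPM against 41.4, 42.8 and 42.8 CPM, a log2 fold change of -0.18 (adjusted p = 0.00493 by edgeR). MGAT5B, its relative best known from brain, measured 36.1, 37.7 and 34.5 CPM against 31.8, 30.6 and 30.4 CPM, at -0.22 (adjusted p = 0.00205 by edgeR). Both small falls lost their call with the length and GC correction, under which MGAT5 was at -0.02 and MGAT5B at 0.01. MGAT3, the bisecting enzyme, was at -0.03 and not called. The summed level of the family was 152 ± 4.12 FPKM in shCtrl and 138 ± 4.38 FPKM in shPARP1, or 91.1% of control.

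The galactosyltransferases changed in both directions. Of 9 tested B3GALT and B4GALT genes 3 rose, 3 fell and 3 were not called, shares of 33.3% each way that lie near those of protein-coding genes (29.6% higher and 32.2% lower), with a median log2 fold change of -0.07. B3GALT5 was called higher as well with the length and GC correction. B4GALT1, the main maker of lactosamine units in most cells, measured 74.9, 78.8 and 70.7 CPM in shCtrl and 109, 108 and 109.9 CPM in shPARP1. The knockdown libraries were all higher, at 146% of control, with a log2 fold change of 0.54 (SE 0.04, adjusted p = 3.92e-16 by edgeR). B4GALT3, a related enzyme of the same reaction, measured 158, 162 and 152 CPM in shCtrl and 121, 119 and 115 CPM in shPARP1. It fell by 0.41 on the log2 scale (SE 0.04, adjusted p = 1.6e-13 by edgeR), and 28.7% of its exon bases lie opposite PPOX.

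B3GALT6, which adds a galactose to the linker that joins glycosaminoglycans to proteoglycans, measured 92.7, 96.3 and 95.1 CPM in shCtrl and 121, 109 and 108 CPM in shPARP1. The groups did not overlap and the log2 fold change was 0.25 (SE 0.04, adjusted p = 2.09e-06 by edgeR). B4GALT7, which adds the galactose before it, was not called, at -0.07 (adjusted p = 0.257 by edgeR), and without shCtrl replicate 3 it was called lower at -0.15 (adjusted p = 0.0128). B4GALT2 measured 146, 145 and 136 CPM against 157, 152 and 153 CPM, a rise of 0.11 (adjusted p = 0.0111 by edgeR) that was not called without shCtrl replicate 3 (0.08, adjusted p = 0.108) and stood at 0.19 with the length and GC correction. B4GALT4 measured 31.3, 36.1 and 33.02 CPM against 27.5, 29.5 and 27.6 CPM and fell by 0.25 (adjusted p = 0.00125 by edgeR), a call not made by limma on FPKM (adjusted p = 0.0713). B4GALT5, a maker of lactosylceramide, measured 61.9, 61.3 and 59.7 CPM against 54.3, 54.4 and 50.8 CPM and fell by 0.20 (adjusted p = 6.06e-04 by edgeR), or by 0.12 with the length and GC correction. Summed over the class, the level was 202 ± 9.57 FPKM in shCtrl and 204.5 ± 5.28 FPKM in shPARP1, a difference within the spread of the libraries.

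The B3GNT enzymes add the GlcNAc that alternates with galactose in long chains. Of 6 tested genes 4 fell (66.7%, where 32.2% of tested protein-coding genes fell). The other 2 did not pass the test (B3GNT3 and B3GNT6), and the median was -0.54. B3GNT2, the main polylactosamine enzyme, measured 8.81, 9.71 and 11.7 CPM in shCtrl and 2.94, 4.57 and 4.43 CPM in shPARP1. Every knockdown library was lower by a wide margin, with a log2 fold change of -1.35 (SE 0.14, adjusted p = 3.79e-12 by edgeR), or 39.4% of control. B3GNT9 was the most abundant of them per length and measured 59.7, 62.0 and 55.5 CPM against 42.4, 40.8 and 39.96 CPM, at -0.52 (SE 0.05, adjusted p = 1.36e-12 by edgeR). B3GNT4 measured 22.6, 23.2 and 20.1 CPM against 16.8, 14.6 and 12.99 CPM, at -0.56 (SE 0.09, adjusted p = 1.23e-07 by edgeR), and part of its exons lies opposite DIABLO. B3GNT5, which starts the lacto-series glycolipids, was near 2 CPM and fell by 1.08, which limma on FPKM did not call (adjusted p = 0.0575). The summed level of the class was 69.1% of control, at 27.6 ± 1.46 FPKM in shCtrl and 19.04 ± 0.40 FPKM in shPARP1.

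Sialyltransferases put the terminal, negatively charged sugar on glycans. Of 11 tested genes 9 fell (81.8%, where 32.2% of tested protein-coding genes fell). The other 2 did not pass the test (ST3GAL6 and ST6GALNAC5), and the median was -0.46. ST6GAL1, which places sialic acid on the galactose of N-glycans and lies at chr3:186930485-187078553, fell furthest. It measured 37.7, 37.5 and 38.6 CPM in shCtrl and 13.2, 12.996 and 15.1 CPM in shPARP1, with a log2 fold change of -1.46 (SE 0.07, adjusted p = 1.15e-24 by edgeR). That is 36.3% of control, with SDs of 0.55 and 1.16 CPM.

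The ST3GAL enzymes join sialic acid to galactose by another linkage, and 5 of 6 tested fell. ST3GAL1, which caps the core O-glycan, measured 41.6, 40.4 and 40.4 CPM against 29.8, 28.8 and 30.3 CPM, at -0.46 (adjusted p = 3.26e-09 by edgeR), or -0.29 with the length and GC correction. ST3GAL4, which caps lactosamine chains, measured 40.6, 42.7 and 39.2 CPM against 29.8, 28.2 and 28.4 CPM, at -0.50 (adjusted p = 4.64e-10 by edgeR). ST3GAL3, with a like substrate, measured 19.4, 19.3 and 19.6 CPM against 14.3, 14.1 and 13.4 CPM, at -0.48 (adjusted p = 1.25e-06 by edgeR), or -0.26 with that correction. None of these groups overlapped. ST3GAL5, the GM3 ganglioside synthase, fell by 0.82, and ST3GAL2 by 0.20, which became 0.02 and lost its call with the correction. ST6GALNAC4 and ST6GALNAC6 lie 2.48 kb apart on chromosome 9 and fell by 0.39 and 0.25. ST6GALNAC6 shares 47.0% of its exon bases with another annotated gene on the same strand and fell by 0.11 with the correction. ST6GALNAC3, near 1 CPM, fell by 0.84 (adjusted p = 0.0147 by edgeR) but was not called by DESeq2 (adjusted p = 0.0585) or without any of shCtrl replicate 2, shCtrl replicate 3 and shPARP1 replicate 1. The summed level of the class was 132 ± 2.16 FPKM in shCtrl and 104 ± 2.69 FPKM in shPARP1, or 79.1% of control.

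Fucosyltransferases place fucose on the core or the antennae of glycans. Of 7 tested genes 4 fell (57.1%), 1 rose (14.3%) and 2 were not called, with a median log2 fold change of -0.45. Of tested protein-coding genes, 32.2% fell and 29.6% rose. FUT8, the core fucosyltransferase of N-glycans, lies at chr14:65410592-65744121 and measured 24.9, 27.9 and 30.9 CPM in shCtrl against 13.8, 13.2 and 13.03 CPM in shPARP1. Its controls spread more than its knockdown libraries (SD 3.05 and 0.43 CPM) but stayed well above them, with a log2 fold change of -1.06 (SE 0.08, adjusted p = 5.14e-17 by edgeR). FUT4, which makes the Lewis x type of antenna fucose, measured 15.5, 14.4 and 16.6 CPM against 18.2, 19.0 and 17.8 CPM. It rose by 0.24 (adjusted p = 0.0116 by edgeR), a call that was lost without shCtrl replicate 2 (adjusted p = 0.05003) or shPARP1 replicate 2 (adjusted p = 0.0549), and that stood at 0.36 with the length and GC correction.

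FUT11 measured 20.5, 13.7 and 20.6 CPM in shCtrl and 13.8, 14.4 and 11.8 CPM in shPARP1. It was the single called gene of the 57 whose groups overlapped, because shCtrl replicate 2 sat among the knockdown libraries. Its log2 fold change was -0.45 (adjusted p = 0.00696 by edgeR), and the call was lost without shPARP1 replicate 1 (adjusted p = 0.0504) and with the length and GC correction (adjusted p = 0.112), as in limma on FPKM (adjusted p = 0.0848). FUT10 fell by 1.01 from about 3 CPM. FUT6 stayed under 1 CPM and fell by 1.79, with counts that may be shared with its near-identical copy FUT3, and limma on FPKM did not call it (adjusted p = 0.0795). FUT7 and FUT9 were under 2 CPM and not called, and FUT7 was called higher without shCtrl replicate 3, at 1.06 (adjusted p = 0.0329). Genes on the opposite and the same strand cover 39.2% and 27.6% of the exon bases of FUT7. The summed level of the family was 15.1 ± 1.70 FPKM in shCtrl and 11.2 ± 0.54 FPKM in shPARP1, or 74.4% of control.

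**Figure D3:**
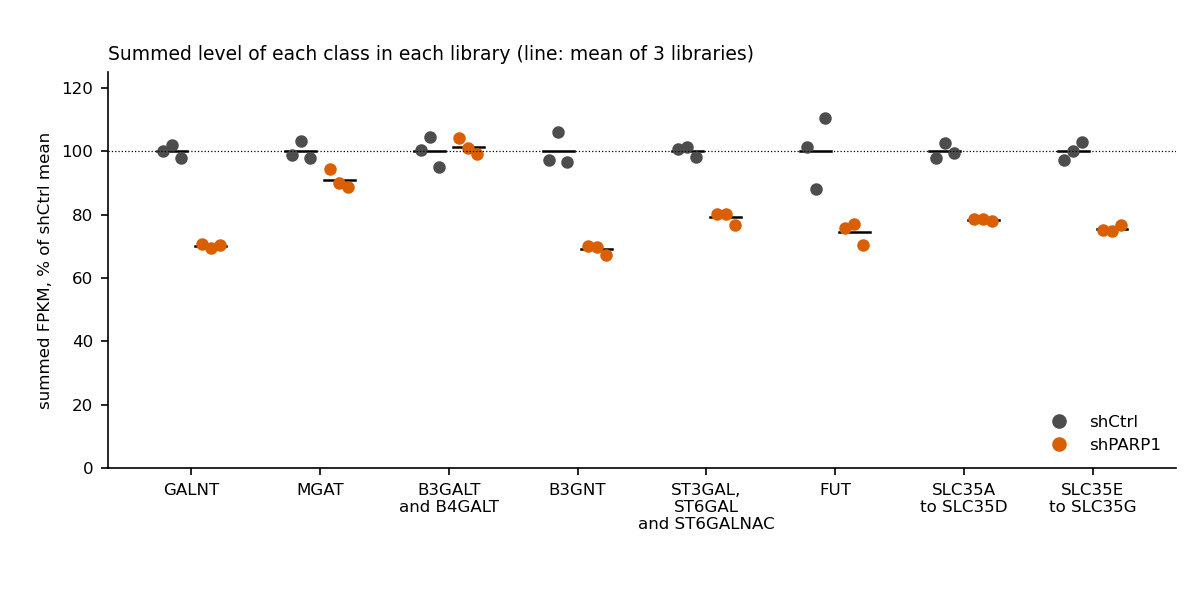
Summed FPKM of all genes of each class in each library, as a percent of the shCtrl mean of that class (vertical axis from 0), grey for shCtrl and orange for shPARP1, with a line at each group's mean. The galactosyltransferases sit at 101% of control and the MGAT family at 91.1%, while the other classes sit between 69.1% and 79.1%. In members of at least 5 CPM, log2 ratios of FPKM ran 0.04 to 0.05 above those of the TMM-scaled counts.

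SLC35 carriers of subfamilies A to D include those with known nucleotide sugar cargo. Of 13 tested, 9 fell (69.2%), 1 rose (7.69%) and 3 were not called, with a median of -0.38. Of tested protein-coding genes, 32.2% fell and 29.6% rose. SLC35B2, which brings the sulfate donor PAPS into the Golgi, had the highest level per length of all SLC35 genes, at 95.7 FPKM in shCtrl and 61.3 FPKM in shPARP1. It measured 250.2, 268 and 263 CPM in shCtrl and 163, 167 and 155 CPM in shPARP1, with no overlap and a log2 fold change of -0.69 (SE 0.04, adjusted p = 3.06e-23 by edgeR). Its share of the summed SLC35 FPKM went from 28.7% to 23.7%. SLC35C1, the carrier of GDP-fucose, measured 37.6, 38.1 and 39.7 CPM against 24.3, 24.3 and 23.5 CPM. The knockdown libraries were at 62.5% of control, a log2 fold change of -0.68 (SE 0.07, adjusted p = 1.41e-13 by edgeR).

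SLC35D2, a carrier of UDP-GlcNAc among other donors, measured 35.6, 36.6 and 34.3 CPM against 20.7, 18.6 and 20.2 CPM, at -0.84 (SE 0.07, adjusted p = 9.68e-16 by edgeR). Another annotated gene on the same strand shares 46.8% of its exon bases. SLC35A2, the carrier of UDP-galactose, measured 93.0, 93.2 and 87.7 CPM against 69.6, 68.1 and 74.0 CPM, at -0.37 (SE 0.05, adjusted p = 2.92e-10 by edgeR). SLC35A1, the carrier of CMP-sialic acid, measured 9.98, 9.75 and 11.3 CPM against 7.13, 7.68 and 9.03 CPM. Its groups came close but did not overlap, at -0.38 (adjusted p = 0.00217 by edgeR), which was -0.62 with the length and GC correction, and another annotated gene on the same strand shares 55.5% of its exon bases.

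Some carriers did not follow. SLC35A4, whose cargo is less settled, measured 103, 89.2 and 91.8 CPM in shCtrl and 115, 116 and 115 CPM in shPARP1 and rose by 0.28 (SE 0.04, adjusted p = 2.25e-07 by edgeR). SLC35A3, a carrier of UDP-GlcNAc, measured 3.93, 4.05 and 5.27 CPM against 5.71, 5.51 and 4.57 CPM. These groups overlapped, the log2 fold change of 0.25 was not called (adjusted p = 0.145 by edgeR), and without shCtrl replicate 3 it was called at 0.40 (adjusted p = 0.0330). SLC35B1, which exchanges ATP and ADP at the endoplasmic reticulum, measured 81.2, 82.3 and 82.5 CPM against 76.8, 78.9 and 79.3 CPM, at -0.07 (adjusted p = 0.205 by edgeR). SLC35B3, the other PAPS carrier, was not called at -0.18 but was at -0.33 with the length and GC correction (adjusted p = 0.0367). The remaining falls were 1.21 for SLC35D1, 0.50 for SLC35A5, 0.48 for SLC35B4 and 0.38 for SLC35C2, the last at 0.23 with the correction.

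Subfamilies E to G, most of whose cargo is unknown, fell in 9 of 12 tested genes (75%, where 32.2% of tested protein-coding genes fell). The other 3 were not called (SLC35E2, SLC35E4 and SLC35G5), and the median was -0.37. All 4 tested SLC35F genes were among the fallers. SLC35F5 measured 24.1, 23.0 and 21.9 CPM in shCtrl and 11.05, 11.99 and 11.3 CPM in shPARP1, at -1.01 (SE 0.08, adjusted p = 6.62e-16 by edgeR). SLC35F2 measured 51.8, 53.4 and 57.0 CPM against 29.2, 30.1 and 31.9 CPM, at -0.83 (SE 0.06, adjusted p = 1.14e-18 by edgeR). SLC35F3 measured 8.44, 8.09 and 9.30 CPM against 4.01, 5.67 and 4.63 CPM, at -0.85 (SE 0.13, adjusted p = 7.43e-08 by edgeR). In all of these the lowest control lay above the highest knockdown library. SLC35G1 fell by 1.12, SLC35E2B by 0.69, SLC35F6 by 0.46, SLC35E3 by 0.28, SLC35G2 by 0.27 and SLC35E1 by 0.16. SLC35E3 and SLC35E1 lost their calls with the length and GC correction. SLC35E4, at -0.01, is given no direction because the correction turned it to 0.18, and 27.7% of its exon bases lie opposite DUSP18. SLC35E2 and SLC35E2B are near-identical neighbours, and SLC35G3, SLC35G5 and SLC35G6 are near-identical copies at separate places in the genome. The counts of all these genes are therefore uncertain. Over all 30 SLC35 genes the summed level was 333 ± 7.005 FPKM in shCtrl and 258 ± 0.26 FPKM in shPARP1, or 77.5% of control.

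Neighbouring members did not always move together. On chromosome 1, ST3GAL3, which fell, and B4GALT2, which rose, lie 47.8 kb apart. The length and GC correction left the split between the directions less one-sided, with 47 members lower and 9 higher, where 26.2% of all genes were lower and 30.7% higher in the same fit. Of the 52 fallers 46 were lower in both fits, and all 5 risers were higher in both, joined by B3GALT5, MGAT1, SLC35A3 and SLC35E4. The median of the members was -0.31 with the correction, where that of all genes was 0.03.

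**Figure D4:**
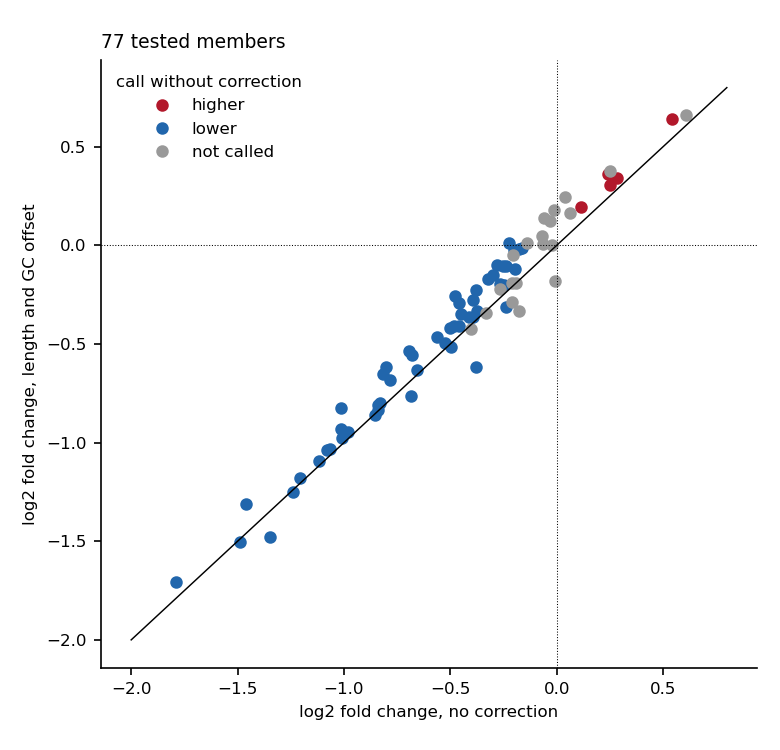
Log2 fold change of the 77 tested genes without (horizontal axis) and with (vertical axis) the correction for gene length and GC content, coloured by the call without it, with a line of equality. Most points lie below 0 on both axes, and MGAT5B is the one called gene that crosses 0, by a small amount.

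The rest of the glycan pathway was described from 6 lists of 147 tested genes, of which 68 fell and 27 rose. Of tested protein-coding genes, 32.2% fell and 29.6% rose. Enzymes that make the nucleotide sugars, upstream of the carriers, were evenly divided: 7 of 27 fell, 7 rose, and the median was 0.09. That is 25.9% each way, below both shares of protein-coding genes. UXS1, which makes UDP-xylose, went from 156 ± 0.65 to 84.0 ± 1.58 CPM and fell by 0.89. UAP1L1 fell by 0.50, while GMPPA, a regulator of GDP-mannose supply, and TSTA3, the last enzyme of GDP-fucose synthesis, both rose by 0.52. TSTA3 thus rose where the fucose carrier SLC35C1 and the core fucosyltransferase FUT8 fell.

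A list of other glycosyltransferases outside the named families had 16 of 25 genes lower (64%) and 4 higher (16%), with a median of -0.37. LFNG, which extends O-fucose on Notch, fell from 285 ± 8.91 to 150 ± 10.2 CPM, by 0.93 on the log2 scale, and GCNT1, which branches O-glycans, fell by 0.85. B3GNTL1 rose by 0.74 and POMGNT1, an enzyme of O-mannose glycans, rose by 0.26. The glucosidases, mannosidases and related proteins of N-glycan trimming in the endoplasmic reticulum and Golgi fell in 10 of 15 (66.7%) and rose in 2 (13.3%). EDEM2 and EDEM1, which help mark misfolded glycoproteins for degradation, fell by 0.98 and 0.86. GANAB, the catalytic subunit of glucosidase II, rose from 402 ± 8.52 to 753 ± 15.5 CPM, by 0.90, and MAN1A2 rose by 0.37.

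The oligosaccharyltransferase and dolichol genes, which make and transfer the N-glycan precursor, fell in 17 of 35 (48.6%) and rose in 7 (20%), with a median of -0.15. The subunits RPN2 and MAGT1 fell by 0.77 and 0.68, and the subunits OST4 and OSTC rose by 0.57 and 0.25. Golgi tethers, COG subunits and ion transporters fell in 7 of 31 and rose in 7, with a median of -0.01. That is 22.6% each way, again below both shares of protein-coding genes. SLC39A9, a zinc transporter, and ATP2C1, the Golgi calcium and manganese pump, fell by 1.04 and 0.64. The structural golgins GOLGA2 and GOLGA3 rose by 0.78 and 0.59, GOLGA2 from 51.9 ± 2.41 to 89.1 ± 2.63 CPM. The mostly lysosomal enzymes that remove sugars from glycans fell in 11 of 14 (78.6%), with a median of -0.40. By edgeR, DESeq2 or an unadjusted p of 0.05, 0 of them rose. MANBA and FUCA1, a mannosidase and a fucosidase, fell by 0.91 and 0.83.

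**Figure D5:**
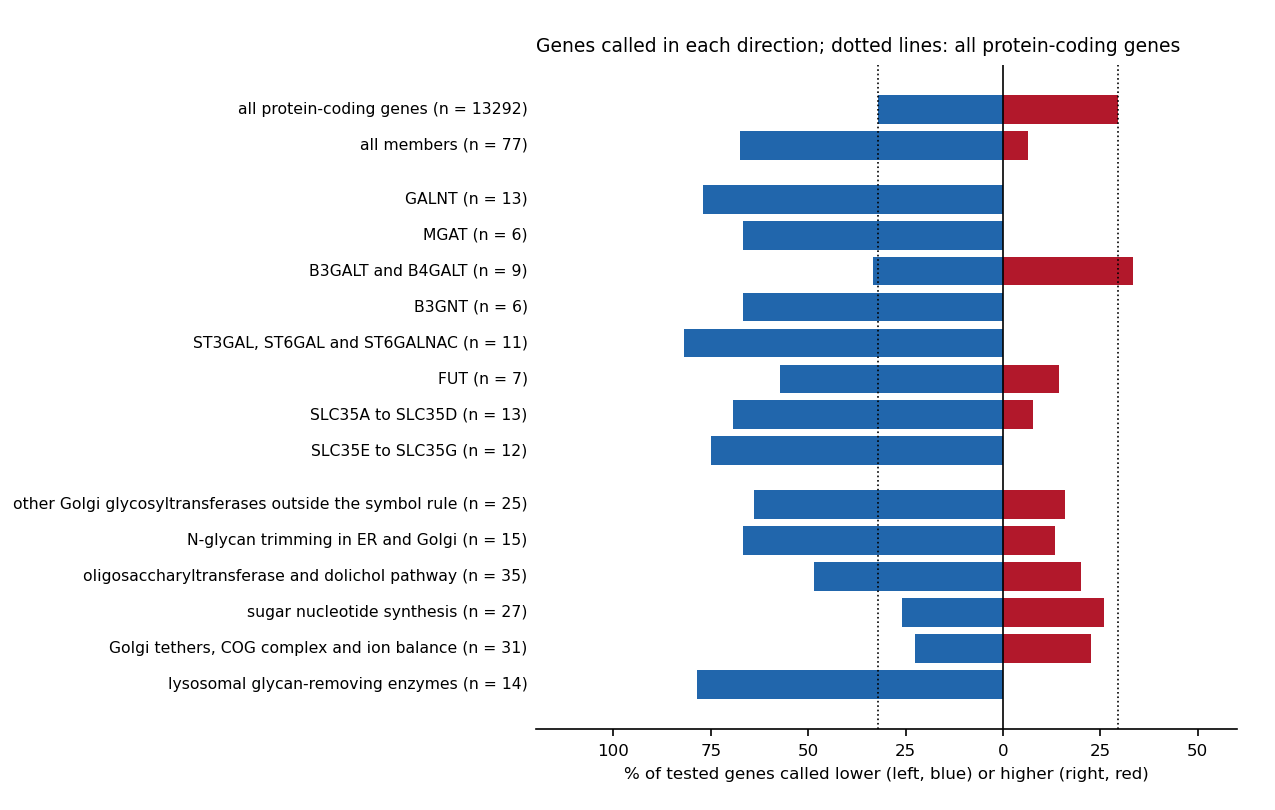
Percent of tested genes called lower (left, blue) and higher (right, red) in each class and pathway list, with the number tested in parentheses and dotted lines at the shares over all protein-coding genes (32.2% lower, 29.6% higher). The members as a whole reach 67.5% lower and 6.49% higher, while the lists for sugar nucleotide synthesis and for Golgi tethers have equal counts in both directions.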

How the data were processed

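The authors deposited whole-number counts per gene and FPKM values, rounded to 2 decimals, for 6 libraries. Per the labels' protocols, RNA was selected by poly(A), a stranded kit was used and sequencing was paired-end. Per the submitters' processing notes the build was GRCh38 and the tools were bcl2fastq, TopHat2 and edgeR. How reads were counted, with which strand setting and annotation, is not given in the sources used here. FPKM was a rescaling of the same counts and adds no independent measure. Its log2 ratios were 0.04 to 0.05 higher than those of the counts over the 56 members of at least 5 CPM.

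Counts were fitted in R 4.3.3 with edgeR 4.0.16: filterByExpr (16040 genes), TMM, robust quasi-likelihood F test, Benjamini-Hochberg over all genes tested, called at an adjusted p of 0.05. The SE is the absolute log2 fold change over the square root of F. The fit was tested on simulated data. Gene lengths, GC content, coordinates and overlaps came from GENCODE release 29. Alternatives were other scalings and filters, DESeq2 1.42.0, limma 3.58.1 on log2(FPKM + 1) and log2(FPKM + 0.1), a replicate block, a length and GC offset (natural splines, 4 degrees of freedom each), each library left out and thinned counts.

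The members and lists were chosen with earlier results of these data known. Values in every library are given for up to 3 largest called rises and falls per class whose mean reached 5 CPM, and for 14 members of known role regardless of call. From each pathway list the 2 largest called rises and falls among genes averaging 5 CPM or more were named. Exon overlaps with other genes are stated for the named members with the largest ones, and smaller overlaps exist for others. Some marker genes are not reported here by name.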

Additional observations from a re-analysis of the deposited data

How the results depend on the processing

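Over 17 alternatives the number of members called lower ran from 42 (genes whose mean reached 5 CPM) to 54 (no filter), against 52, and the number called higher from 4 to 9, against 5. The 9 were reached with the length and GC offset, under which MGAT1 (0.14), MGAT5B (0.0144) and SLC35E4 (0.18) turned from below to above 0, as did the uncalled B3GNT6, B4GALT7, GALNT9, MGAT3 and SLC35B1. Leaving out each library in turn gave 50 to 52 members lower and 4 to 6 higher, 63 to 67 pathway genes lower and 19 to 28 higher. Of 57 called members, 56 kept their sign under every alternative that gave a value, with MGAT5B the exception, and 58 of the 77 tested members stayed on their side of the threshold. The replicate block gave 52 lower and 5 higher. Same-numbered libraries deviated with correlations of 0.036, -0.0042 and 0.036, and differently numbered ones with -0.059 to 0.025. Such small values do not settle whether the libraries were paired, and the main fit treated them as unpaired. Limma on FPKM did not call 8 members that edgeR called (B3GNT5, B4GALT4, FUT6, FUT11, MGAT5, SLC35E1, SLC35E3 and ST6GALNAC3). Thinning all libraries to the smallest total, chosen after seeing the data, changed no member's call. Called rises fell from 2 to 1 in the N-glycan trimming list without shCtrl replicate 1, shCtrl replicate 3 or shPARP1 replicate 3, from 4 to 2 in the list of other glycosyltransferases without shPARP1 replicate 2, and from 7 to 4 in the Golgi tether list without shCtrl replicate 2 or shPARP1 replicate 3. PARP1 stayed between -3.30 and -3.01. Genes under about 1 CPM rest on few counts, and the SDs and SEs given reflect the spread between libraries, which may be technical.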
